A study of Mus musculus with 6 samples.

Results

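A group of 10 genes for the making, breakdown and sensing of prostaglandins was followed in mouse glioma cells given the SHP-2 inhibitor SHP099. They are the 10 gene symbols Ptgs1, Ptgs2, Ptges, Ptges2, Ptges3, Ptgds, Ptgis, Ptgr1, Hpgd and Ptger4, out of 53346 symbols in the files, and they were picked because Ptgs2 is lower and Ptgds higher with the inhibitor. The values of these 2 genes therefore describe the choice and test nothing. The cells are labelled as astrocytes of genotype Ink4a/Arf-/- with PDGFRa and PDGF-A, and as glioma cells from a tumor. All groups share that genotype, and the labels set them apart by dose alone: 0, 5 or 10 µM SHP099. SHP099 is an allosteric inhibitor of SHP-2, the phosphatase encoded by Ptpn11, which passes signals from receptor tyrosine kinases to RAS and ERK. The labels give neither the length of treatment, nor the form of the PDGF constructs, nor whether the cells are 1 clone.

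Prostaglandins are lipid signals made from arachidonic acid. Phospholipase A2 frees the acid from membranes, a cyclooxygenase (Ptgs1 or the inducible Ptgs2) turns it into the unstable PGH2, and terminal synthases convert that into PGE2, PGD2, prostacyclin or thromboxane. The products act on G-protein-coupled receptors of neighbouring cells and are taken up and oxidised by 15-hydroxyprostaglandin dehydrogenase (Hpgd). In the brain, Ptgds makes PGD2 and is a major secreted protein of the cerebrospinal fluid, and Ptgs2 and PGE2 are widely studied in glioma.

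For every dose a single library of polyadenylated RNA was run in lanes 6 and 7 of a sequencer. There are thus 6 files but n = 1 per dose, no test of a dose was possible, and the range over lanes shows sequencing error without the variation between cultures. In bulk RNA, fewer cells of a type and less RNA per cell cannot be told apart. Values are FPKM, the authors' fragment numbers adjusted for transcript length and for sequencing depth, so levels can be compared between genes. The depth recovered from the steps between low values was 30749600 to 47576800 mapped fragments per lane, highest without inhibitor and lowest with 10 µM. Genes are called higher or lower, or said to rise or fall, where the mean log2(FPKM + 1) changed 1.5-fold or more and the 4 possible pairings of lanes gave the same sign. The target gene Ptpn11 lay between 56.8 and 60.4 FPKM in the 6 files, which does not check the drug, since SHP099 acts on the protein.

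The RefSeq start regions of Ptgs2, Ptges3 and Ptgds are printed here because these 3 genes were called at both doses (build GRCm38.p6, 250 bases before to 50 bases after the start, 5′ to 3′ on the gene's strand). Capitals mark matches to 7 motifs searched on both strands: the cAMP response element half-site CGTCA, the E-box CACGTG, the AP-1 site TGANTCA, the C/EBP palindrome TTGCGCAA, an NF-kappaB form (GGGA and CC with 4 free bases between), the GC box GGGCGG and the TATA box TATAAA.
Ptgs2, chr1:150099781-150100080, plus strand: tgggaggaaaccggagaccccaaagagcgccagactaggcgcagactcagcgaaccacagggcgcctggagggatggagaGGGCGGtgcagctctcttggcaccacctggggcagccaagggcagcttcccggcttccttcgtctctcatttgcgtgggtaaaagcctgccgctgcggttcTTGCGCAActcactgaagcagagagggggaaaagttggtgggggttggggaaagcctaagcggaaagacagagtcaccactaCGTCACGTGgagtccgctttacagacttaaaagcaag
Ptges3, chr10:128058732-128059031, plus strand: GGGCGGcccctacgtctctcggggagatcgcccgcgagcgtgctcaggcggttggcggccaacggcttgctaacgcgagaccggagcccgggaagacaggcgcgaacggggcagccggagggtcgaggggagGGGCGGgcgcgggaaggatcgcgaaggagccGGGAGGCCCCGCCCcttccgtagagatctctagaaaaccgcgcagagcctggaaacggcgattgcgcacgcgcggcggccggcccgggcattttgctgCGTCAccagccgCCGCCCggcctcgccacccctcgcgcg
Ptgds, chr2:25469700-25469999, minus strand: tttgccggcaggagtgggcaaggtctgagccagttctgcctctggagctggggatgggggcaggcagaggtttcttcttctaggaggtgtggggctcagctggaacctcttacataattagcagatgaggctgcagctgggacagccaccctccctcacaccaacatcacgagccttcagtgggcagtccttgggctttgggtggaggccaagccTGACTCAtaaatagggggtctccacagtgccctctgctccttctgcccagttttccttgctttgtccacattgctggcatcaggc

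The Ptgs2 window holds a half-site CGTCA that begins at base 14 counted from the RefSeq start and runs into an E-box that begins at base 17. A C/EBP palindrome begins 69 bases before that start, and a GC box lies further upstream. Where transcription of Ptgs2 starts in these cells was not examined, so these positions do not show which bases are transcribed. The palindrome is in 0.183% of the 32851 start windows of the table, the E-box in 7.15% and the half-site in 20.8%. Among the 9 members with a window, the half-site was found in Ptgs2 and Ptges3. The Ptges3 window also holds 4 GC boxes and the NF-kappaB form, which 20.7% of all windows have and which overlaps 1 of those boxes. The single match in the Ptgds window is an AP-1 site 35 bases before the start, a motif found in 7.81% of all windows and in no other member's. GC boxes, in 35.7% of all windows, were found in 6 of the 9 members' and not in those of Ptgds, Ptgs1 or Ptges2. These matches describe letters only, and no binding was measured.

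Both cyclooxygenases were expressed, and of the pair Ptgs2 fell at both doses while Ptgs1 was not called. Ptgs2 (ENSMUSG00000032487), the inducible enzyme, was at 33.0 and 33.8 FPKM in the untreated lanes, 8.50 and 8.02 with 5 µM, and 9.59 and 9.84 with 10 µM. Both treated libraries lay far below the untreated one and the lanes did not overlap between any 2 doses. The log2 fold was −1.89 at 5 µM (−1.95 to −1.84 over the lane pairs) and −1.68 at 10 µM (−1.72 to −1.65), so the lower dose had the lower level. Of 12567 genes compared, 168 had a lower fold than Ptgs2 at 5 µM and 360 at 10 µM.

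Ptgs1 (ENSMUSG00000047250), the constitutive cyclooxygenase, was the most abundant of the 10 genes at every dose. It was at 112.5 and 108.9 FPKM at 0 µM, 160.0 and 163.2 with 5 µM, and 158.4 and 158.1 with 10 µM. Every treated lane lay above every untreated lane, but the log2 folds of 0.54 and 0.51 stay under the threshold of 0.585 and the gene is not called. With each file scaled to an equal sum of FPKM it was called higher at both doses (0.72 and 0.73).

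The share of Ptgs2 among the isoenzymes was lower in every treated lane. Ptgs2 made up 22.7% and 23.7% of the summed cyclooxygenase FPKM in the untreated lanes, 5.04% and 4.69% at 5 µM, and 5.71% and 5.86% at 10 µM. In the treated files Ptgs1 exceeded Ptgs2 by 16.1-fold to 20.3-fold, against 3.22-fold and 3.41-fold without inhibitor. The sum of both was not lower with treatment: 145.5 and 142.8 FPKM at 0 µM, 168.5 and 171.2 with 5 µM, and 168.0 and 167.9 with 10 µM.

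**Figure D1:**
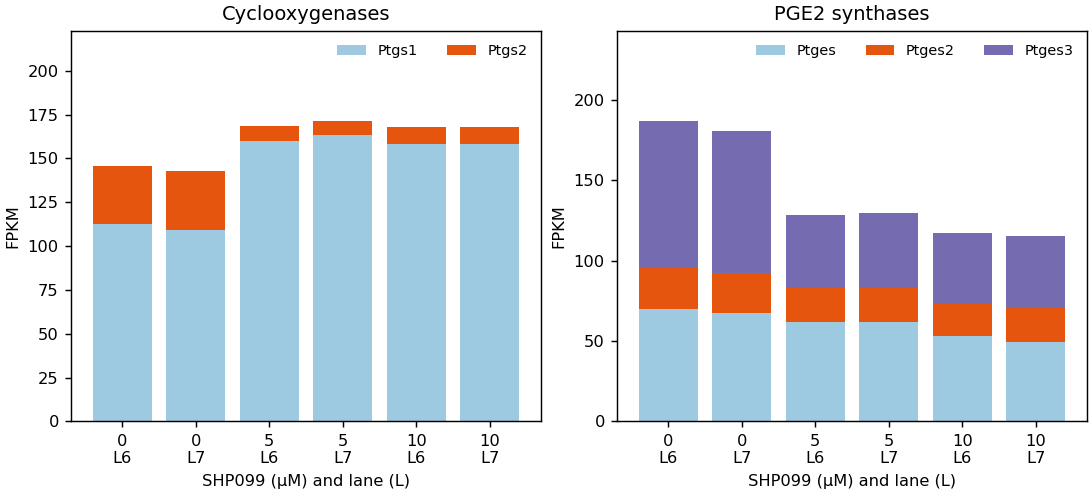
Summed FPKM of the cyclooxygenase genes (left) and of the PGE2 synthase genes (right) in each lane file (L6, L7) at 0, 5 and 10 µM SHP099; each bar is 1 lane and colours are genes. The Ptgs2 part shrinks from 22.7% and 23.7% to between 4.69% and 5.86%, and the PGE2 synthase sum is lower at both doses.

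The 3 genes named for PGE2 synthesis differed from each other. Ptges3 (ENSMUSG00000071072), which encodes both a cytosolic PGE2 synthase and the HSP90 co-chaperone p23, was at 91.5 and 88.3 FPKM at 0 µM, 44.9 and 46.8 with 5 µM, and 44.1 and 44.8 with 10 µM. Its treated levels were about equal at the 2 doses and far from the untreated lanes, and its mean FPKM was 0.510 of the untreated mean at 5 µM (log2 fold −0.96) and 0.494 of it at 10 µM, both called lower. Ptges (ENSMUSG00000050737), the inducible microsomal synthase that is often coupled to Ptgs2, was at 69.8 and 67.3 FPKM at 0 µM, 61.9 and 62.0 with 5 µM, and 53.1 and 49.4 with 10 µM. No lanes overlapped between doses and the level was lower at each higher dose, yet the folds of −0.14 and −0.41 are not called.

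Ptges2 (ENSMUSG00000026820), a membrane-associated synthase, was at 25.2 and 24.9 FPKM at 0 µM, between 20.6 and 21.7 at 5 µM, and between 20.1 and 21.0 at 10 µM. Its treated lanes overlapped between doses and it is not called (−0.23 and −0.27). The summed FPKM of the 3 genes was 186.6 and 180.5 at 0 µM, 128.5 and 129.4 with 5 µM, and 117.4 and 115.2 with 10 µM. Ptges3 supplied 49.1% and 48.9% of that sum in untreated lanes and 34.9% to 38.9% in treated ones, so Ptges became the larger part (42.9% to 48.2% in treated lanes).

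Ptgds (ENSMUSG00000015090), the lipocalin-type PGD2 synthase, went from near absence to a moderate level. It was at 0.16 and 0.04 FPKM at 0 µM, 8.65 and 7.65 with 5 µM, and 11.3 and 11.8 with 10 µM. All treated lanes lay far above the untreated ones, and the 10 µM lanes above the 5 µM lanes. Its log2 folds of FPKM + 1 were 3.06 (2.90 to 3.22) and 3.51 (3.41 to 3.62), with 8 and 5 of the 12567 genes higher by this measure. The size of these folds depends on the added FPKM: at 10 µM it was 5.93 with 0.1 and 1.70 with 5 FPKM added, and the gene was called in each case.

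The untreated level of Ptgds rests on few fragments. With the shortest annotated coding transcript (775 bases) the values at 0 µM correspond to 4.11 and 0.98 fragments, and with the longest (901 bases) to 5.08 and 1.22. Per mapped fragment, the ratio of 10 to 0 µM was 117 with an exact 95% interval of 49.8 to 363 for the shortest transcript, and 121 with 55.1 to 331 for the longest. For 5 against 0 µM the corresponding ratios were 82.8 (35.1 to 257) and 85.2 (38.8 to 234). Between the treated libraries the ratio of 10 to 5 µM was 1.42 (1.22 to 1.65, shortest transcript). These intervals pool the 2 lanes of a library and cover counting error only. Ptgds was picked for its rise, so the intervals against 0 µM test nothing. On log2(FPKM + 1) the difference of 10 from 5 µM was 0.46 and not called.

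Prostacyclin synthase and the main degrading enzyme were close to or at 0. Ptgis (ENSMUSG00000017969), the prostacyclin synthase, was at 0 and 0.01 FPKM at 0 µM, 0.04 and 0.09 with 5 µM, and 0.10 and 0.05 with 10 µM, which is at most 6.34 fragments in any lane. At this depth no difference can be read from it. Hpgd (ENSMUSG00000031613), the dehydrogenase that inactivates PGE2, was listed at 0 in all 6 files. A count of 0 allows up to 0.0437 to 0.0676 FPKM per file, the worth of 3 fragments. Neither gene reached the mean of 1 FPKM in at least 1 dose that was required for comparison, so 8 of the 10 members were compared; Ptgds passed through its treated levels alone.

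Ptgr1 (ENSMUSG00000028378), a reductase that acts after Hpgd and also inactivates leukotriene B4, was at 33.2 and 32.5 FPKM at 0 µM, 25.4 and 24.1 with 5 µM, and 22.7 and 23.4 with 10 µM. Its lanes did not overlap between doses, and the folds of −0.39 and −0.49 are not called. Ptger4 (ENSMUSG00000039942), the EP4 receptor for PGE2, was at 3.39 and 3.09 FPKM at 0 µM, 1.85 and 1.80 with 5 µM, and 1.91 and 1.82 with 10 µM. All treated lanes lay below the untreated ones and the treated doses overlapped. At 5 µM its fold of −0.59 just passes the threshold and is called lower, and at 10 µM −0.57 just misses it. Of its annotated exonic bases, 15.3% are shared with a pseudogene on the other strand, and whether the authors counted by strand is not given in the sources used here.

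**Figure D2:**
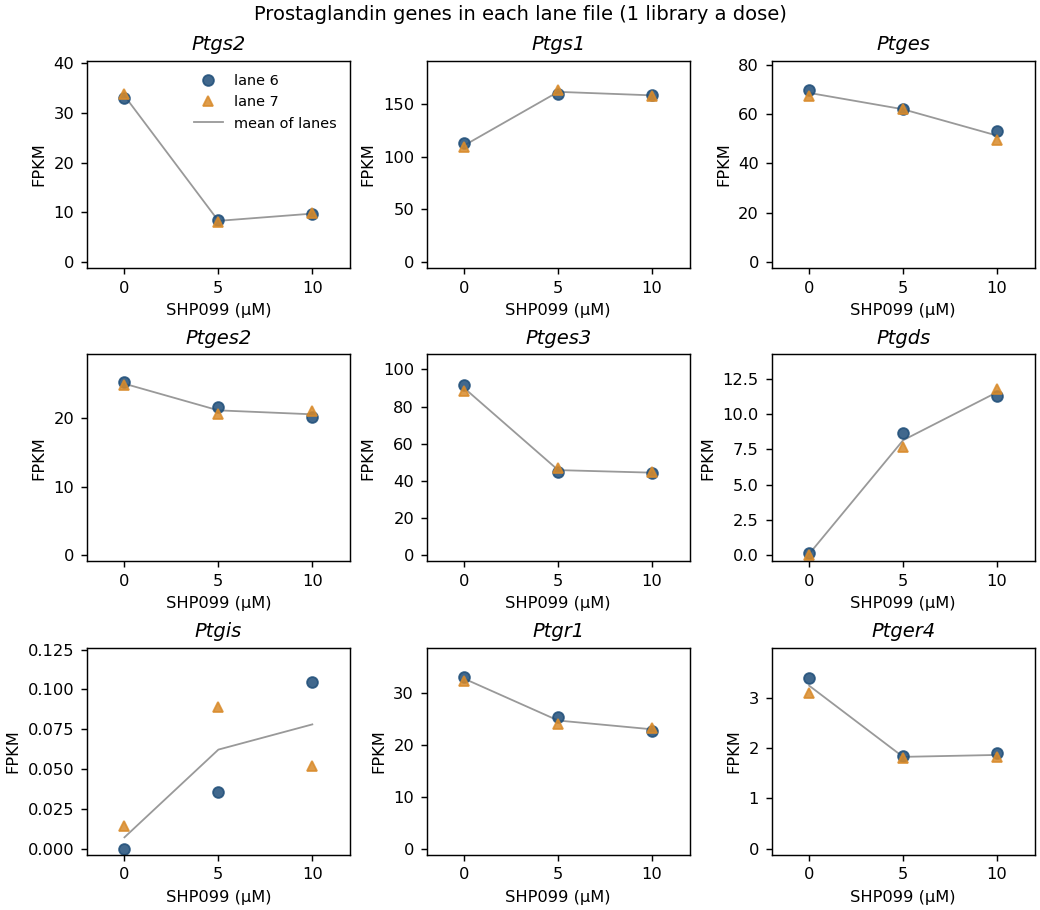
FPKM of the 9 members with any signal at 0, 5 and 10 µM SHP099; circles are lane 6, triangles lane 7 and lines the mean of the lanes of 1 library. Ptgs2 drops from 33.0 and 33.8 to below 10 FPKM, Ptges3 from 91.5 and 88.3 to below 47 FPKM, and Ptgds is near 0 without inhibitor; all Ptgis values lie at or below 0.104 FPKM.

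In all, 1 of the 8 compared members was called higher and 2 lower at 10 against 0 µM, where 34.8% of all 12567 genes were called (15.7% higher, 19.1% lower). At 5 against 0 µM, 1 was higher and 3 lower, beside 30.9% of all genes (14.1% higher, 16.8% lower). Since the members were picked on these contrasts, nothing is read from the counts. The median log2 fold of the compared members was −0.45 at 10 µM and −0.31 at 5 µM, beside −0.03 for all genes in each. Both comparisons share the untreated library.

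Between 10 and 5 µM none of the 8 was called, where 1.77% of all genes were (0.414% higher, 1.35% lower). The largest differences were in Ptgds (0.46), Ptges (−0.27) and Ptgs2 (0.21), and the remaining 5 members differed by at most 0.10 in size. For Ptges2 and Ptger4 the lane pairs disagreed in sign.

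**Figure D3:**
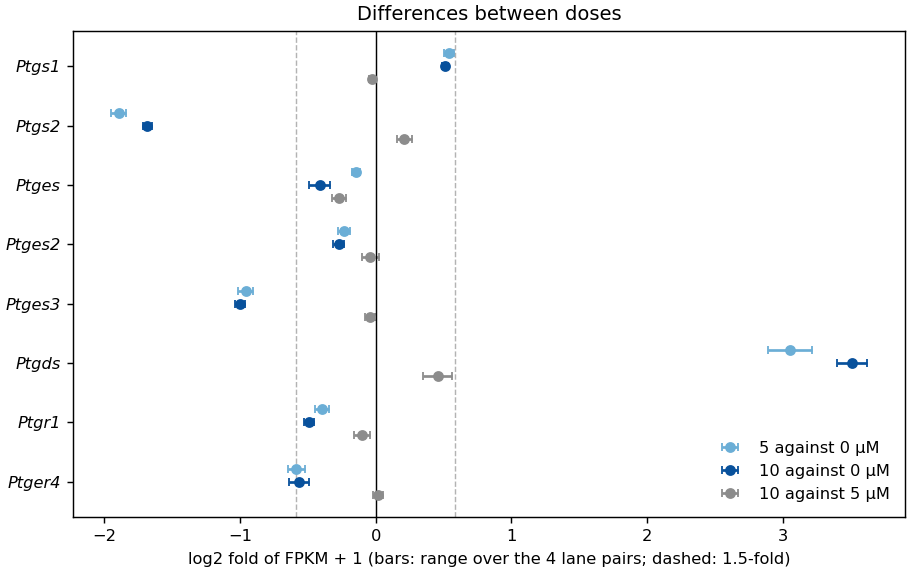
Log2 fold of FPKM + 1 for the 8 compared members in 3 comparisons of doses; points are means over lanes, bars the range over 4 lane pairs, and dashed lines mark 1.5-fold. Ptgds lies at 3.06 and 3.51 and Ptgs2 at −1.89 and −1.68 against 0 µM, while all grey points for 10 against 5 µM lie within the dashed lines.

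The order of levels changed with treatment. At 0 µM it ran from Ptgs1 over Ptges3, Ptges, Ptgs2, Ptgr1, Ptges2 and Ptger4 to Ptgds, Ptgis and Hpgd, and the lanes of Ptgs2 and Ptgr1 overlapped. At 5 µM the order was Ptgs1, Ptges, Ptges3, Ptgr1, Ptges2, Ptgs2, Ptgds and Ptger4, and the lanes of Ptgs2 and Ptgds overlapped. At 10 µM Ptgds lay above Ptgs2, with no overlap of lanes. Among the compared genes, Ptgs1 was at the percentile 92.8 of expression at 0 µM and 95.9 at 10 µM, Ptgs2 went from 72.6 to 40.7, and Ptgds from 0.382 to 45.4. Because Ptgds was compared through its treated levels alone, its bottom rank at 0 µM follows from the filter. Ptgs2 and Ptgds were also picked for these changes, so nothing is read from their shifts in rank.

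By distance between log2 folds at 5 and 10 µM over the 3 libraries, the 5 named genes nearest to Ptgs2 among 10887 were Anks1b (distance 0.11), Kif18a (0.16), Orc1 (0.17), Lgals7 (0.18) and Rfc4 (0.20). Kif18a is a mitotic kinesin, and Orc1 and Rfc4 encode subunits of the origin recognition complex and of the clamp loader. The nearest to Ptgds were Cdsn (0.28), Sebox (0.33), Clu (0.35), Hist1h2bc (0.35) and Cryab (0.36). Clu encodes the secreted chaperone clusterin, and Cryab a small heat shock protein. Clu went from 24.7 FPKM at 0 µM to 212.8 and 229.6. Sebox had a mean of 0.15 FPKM at 0 µM and was compared only through its treated levels. The matching used the very folds for which Ptgs2 and Ptgds were picked, and these folds share the untreated library. No common function is therefore read from the neighbours.

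Other prostanoid genes were taken from lists of synthases, receptors, and transport and breakdown, 23 genes of which 12 were compared. At 10 µM, 3 of the 12 rose and 5 fell, and their median log2 fold was −0.20, where 15.7% of all genes rose, 19.1% fell and the median was −0.03. The lists were chosen with earlier results of these data known, so nothing is read from these counts. The 4 compared synthases had a median of −0.82. Akr1c18, a progesterone-inactivating aldo-keto reductase, was at 10.5 and 9.73 FPKM at 0 µM and between 0.22 and 0.64 in every treated lane, and fell by 2.95 on the log2 scale at 10 µM. Akr1b3, the aldose reductase that can form PGF2alpha, was at 138.4 and 141.1 FPKM untreated and 67.9 and 68.3 at 10 µM, a fold of −1.03. Akr1b8, a growth-factor-inducible aldo-keto reductase, fell by 0.62, a call lost under each of 3 other scalings, by a trimmed mean, equal sums or a median fold of 0 (−0.41 to −0.58), and without lane 6 of 10 µM (−0.55). Gstm2, a glutathione transferase whose human counterpart can form PGE2, rose from 36.8 and 38.3 to 85.3 and 95.9 FPKM (1.25). The hematopoietic PGD2 synthase Hpgds stayed at or below 0.0788 FPKM in all files and the thromboxane synthase Tbxas1 at or below 0.073, so Ptgds was the PGD2 synthase with the higher level in every treated lane.

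Of 8 other prostanoid receptor genes, 2 were compared and both rose at 10 µM, with a median of 0.85. At that dose 15.7% of all genes rose, and nothing is read from a count of 2. Ptgfr, the PGF2alpha receptor, was at 18.4 and 18.0 FPKM at 0 µM, 25.5 and 25.6 with 5 µM, and 33.0 and 31.3 with 10 µM, with no overlap between doses; it rose by 0.79 at 10 µM and was not called at 5 µM (0.47). Ptger1, the EP1 receptor, was listed at 11.7 and 12.7 FPKM untreated, 27.1 and 26.7 with 5 µM, and 22.5 and 25.6 with 10 µM (1.08 and 0.92). Its value is uncertain, because its exons are not free of overlap with other annotation and the strand setting of the counting is not known. The remaining receptors, among them Ptger2 (EP2), Ptgdr and Ptgdr2 for PGD2 and Ptgir for prostacyclin, were at or below 0.292 FPKM, and Ptger3 and Ptgdr were listed at 0 throughout. Ptger4 was thus the higher of the cAMP-raising PGE2 receptors EP2 and EP4 at every dose. The 6 compared genes of transport and breakdown had a median of −0.20. Of these, Zadh2, another prostaglandin reductase, fell by 1.32 and the carbonyl reductase gene Cbr3 by 0.91, while the uptake carrier Slco2a1 (0.29), the exporter Abcc4 (−0.27), Ptgr2 (0.34) and Ptgfrn (−0.12) are not called.

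Of 24 genes that release arachidonic acid 10 were compared, with a median of −0.10 at 10 µM, where 34.8% of all genes were called. Nothing is read from the calls of so few genes. At that dose Pla2g7, which hydrolyses platelet-activating factor, was the 1 gene called: it fell from 91.7 and 96.3 to 44.5 and 41.7 FPKM (−1.11). The cytosolic phospholipase Pla2g4a, the classical source for cyclooxygenases, was at 34.3 and 36.5 FPKM at 0 µM and 29.3 and 27.0 at 10 µM (−0.32, not called). Pla2g15 (0.57), Plaa (−0.54), Pla2g6 (0.42) and Pla2g4b (−0.34) are not called at 10 µM either. Plaa fell at 5 µM (−0.62), a call lost under each of the 3 scalings (−0.44 to −0.58). Pla2g15 lies at the threshold: at 10 µM it was called higher under each of the 3 scalings (0.61 to 0.77), with 0.1 FPKM added (0.62), and without lane 7 of 0 µM (0.59) or lane 6 of 10 µM (0.61). Pla2g6 was called higher with equal sums (0.61). Pla2g4b shares 66.5% of its exonic bases with an overlapping gene on the same strand and is uncertain.

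The return of the acid to phospholipids was covered by 11 compared genes, with a median fold of −0.51 at 10 µM. Of these, 3 fell and 0 rose, where 19.1% of all genes fell, 15.7% rose and the median was −0.03. Nothing is read from so small a count. Mboat2 (0.47) is not called, but it was called higher with 0.1 FPKM added (0.60) and with equal sums (0.63). Lpcat4 went from 44.7 and 45.7 to 16.5 and 16.7 FPKM (−1.39), Mboat1 fell by 0.77 and Lpcat1 by 0.66, the last a call lost with equal sums (−0.45) and without lane 7 of 0 µM (−0.58). The acyl-CoA synthetase genes Acsl5 (−0.55), Acsl4 (−0.54) and Acsl3 (−0.51) are not called at 10 µM but fell at 5 µM (−0.59, −0.86 and −0.79). The 5 µM call of Acsl5 was lost under each of the 3 scalings (−0.42 to −0.56) and without lane 6 of 5 µM (−0.57), and the gene was called at 10 µM without its lane 6 (−0.63). Among 6 compared lipoxygenase and leukotriene genes, the epoxide hydrolase Ephx1 rose from 36.5 in both lanes to 78.2 and 82.9 FPKM (1.12). Dpep1 (0.82) and the leukotriene C4 synthase Ltc4s (0.77) were also called higher, but both were below 1 FPKM without inhibitor and so were compared only because they are higher in treated cells; nothing is read from the list's count. The calls of Dpep1, Ltc4s, Akr1b8, Lpcat1, Mboat1 and C8g, a lipocalin, were lost with 5 FPKM added. Alox5ap (0.36), Ephx2 (0.36) and Lta4h (−0.28) are not called at 10 µM, but Alox5ap, the partner protein of 5-lipoxygenase, rose at 5 µM to 4.35 and 5.24 FPKM from an untreated lane mean of 2.34 (0.80).

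**Figure D4:**
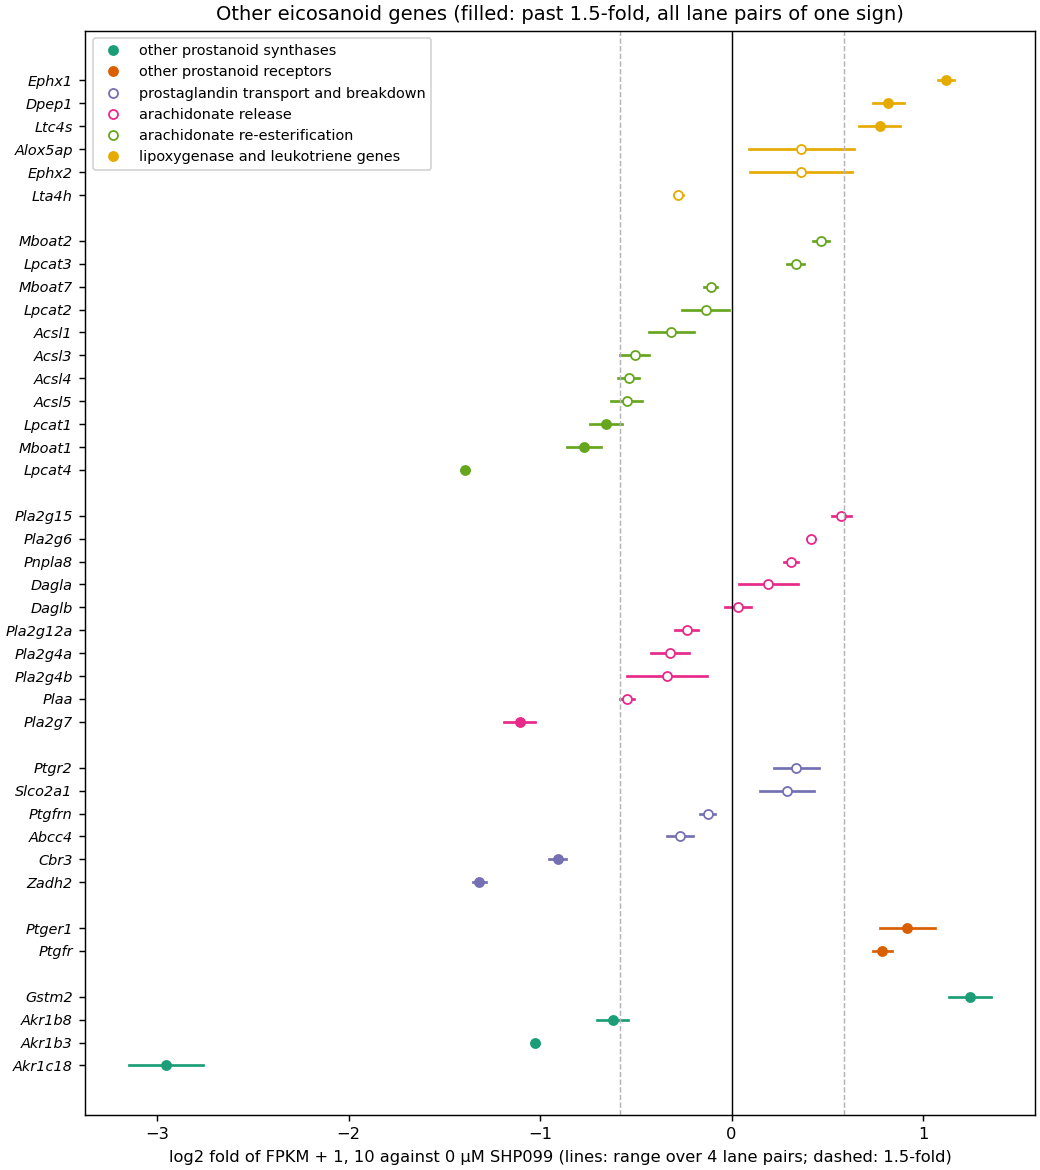
Log2 fold of FPKM + 1 at 10 against 0 µM SHP099 for the compared genes of 6 lists around prostaglandin synthesis; points are means, lines the range over 4 lane pairs, colours the lists, and filled points are called. Akr1c18 (−2.95), Lpcat4 (−1.39) and Zadh2 (−1.32) lie lowest, and Gstm2 (1.25) and Ephx1 (1.12) highest.

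Ptgds belongs to the lipocalins, small secreted carriers of lipids, of which 18 others were listed and 2 compared. Apod was compared only through its treated level and C8g was close to the limit of 1 FPKM without inhibitor, so nothing is read from both being called higher. Apod, apolipoprotein D, was at 0.65 and 0.75 FPKM at 0 µM, 11.7 and 11.8 with 5 µM, and 9.18 and 7.69 with 10 µM (2.91 and 2.47), a rise from a low level but higher at 5 than at 10 µM. C8g was at 1.00 and 1.04 FPKM untreated and 2.59 and 1.83 at 10 µM (0.66, but 0.49 and not called without lane 6 of 10 µM). Of the remaining lipocalins, 12 were listed at 0 in every file.

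Factors known to act on Ptgs2 moved in both directions. Of 14 compared factors that induce Ptgs2 transcription, 1 rose and 3 fell at 10 µM, with a median of −0.07. At that dose 15.7% of all genes rose and 19.1% fell. Fosl1 fell by 4.37, Jun by 1.24 and Egr1 by 0.91, whereas Hif1a rose by 0.66; Fos (−0.52) and Creb1 (−0.47) are not called. Of the exonic bases of Fosl1, 57.2% are shared with Ccdc85b on the other strand. Of 10 genes for proteins that bind Ptgs2 mRNA, 2 rose and 3 fell at 10 µM, with a median of −0.44, beside the same shares of all genes. Zfp36, tristetraprolin, rose from 13.3 and 13.1 to 29.1 FPKM in both lanes (1.08), and its relative Zfp36l1 from 17.5 and 17.9 to 77.9 and 64.1 FPKM (1.94). Of the exonic bases of Zfp36l1, 55.9% are shared with a noncoding gene on the other strand. Another relative, Zfp36l2, went the other way, from 109.8 and 109.4 to 78.2 and 77.2 FPKM (−0.49, not called). Hnrnpd fell by 1.54, Rbm3 by 1.22 and Khsrp by 0.93. Elavl1, which encodes HuR, was at −0.58 and not called, but was called without lane 7 of 0 µM (−0.60) or lane 6 of 10 µM (−0.64). The part of these proteins in the Ptgs2 level was not tested. Over all 9 lists of pathway genes, 26 of 65 compared genes (40.0%) were called at 10 µM, 11 higher and 15 lower, with a median of −0.12, beside the 34.8% and −0.03 of all genes. Since these lists were chosen with earlier results of these data known, nothing is read from the difference.

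Ptgds is also a gene of meninges and oligodendrocytes, and Ptgs1 of microglia, so markers of those cells were set beside them. The summed FPKM of 15 markers of meninges and fibroblasts was 2929 and 2936 at 0 µM, 4683 and 4703 with 5 µM, and 4423 and 4425 with 10 µM; 5 of the 10 compared rose at 10 µM and 1 fell, beside 15.7% and 19.1% of all genes. The collagen genes Col1a1 (655.1 and 654.8 to 1178 and 1170 FPKM) and Col1a2 (1231 and 1232 to 2415 and 2397) made up most of the sum. A further collagen gene of the list, Col3a1, was lower at 10 µM (314.4 and 327.8 to 255.6 and 287.6 FPKM, −0.24, not called). The transcription factor genes Foxc1 (0.06), Tbx18 (0.13) and Zic1 (0.26) are not called, Crabp2 fell by 0.61, and Aldh1a2 was at 0 throughout. Their part in the Ptgds result was not tested. Of 12 oligodendrocyte markers 7 were at 0 in every file and Mbp stayed at or below 0.15 FPKM. The sum of all lay between 9.02 and 10.3 FPKM in every lane. Most of that sum was Cnp, the 1 compared marker of the list, at 8.15 to 9.71 FPKM and not called (0.06 at 10 µM). Of 15 microglia, macrophage and mast cell markers 5 were at 0 in every file and Ptprc and Csf1r stayed at or below 0.08 FPKM. Tmem119 rose from 63.5 and 64.3 to 123.5 and 130.4 FPKM at 10 µM. It made up most of a sum that went from 65.8 and 67.6 to between 120.0 and 133.5 in treated lanes. Of the 3 compared, Tmem119 alone was called at 10 µM. Cd68 lay between 1.51 and 2.27 FPKM in all files (−0.19, not called). Cd74, compared only through its 5 µM level, was called higher at 5 µM (0.64) and not at 10 µM (0.54). The part of these markers in the Ptgs1 level was not tested. Of 10 endothelial markers Flt1 alone was compared and it is not called. Of 8 neuronal markers 2 were compared. Stmn2 fell by 1.01 at 10 µM, while Tubb3 was slightly higher and is not called (0.33 at 5 µM and 0.15 at 10 µM). Against the astrocyte label, Aqp4 was at 0 in all files and Gfap at or below 0.0527 FPKM, while Slc1a3 was between 13.1 and 14.9 FPKM and Vim between 1355 and 1822. Of the 12 astrocyte markers 5 were compared and 1 was called at 10 µM: Nes, an intermediate filament gene of progenitors, fell from 18.7 and 19.3 to 4.68 and 5.26 FPKM (−1.75), while Gja1 (−0.36) and Sox9 (−0.28) are not called.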

How the data were processed

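The data are 6 tables of mouse polyadenylated RNA, 1 for each lane of 3 libraries, and their values are FPKM per Ensembl gene computed by the authors and used as deposited. The labels name the dose, and the file labels of a dose differ in the lane alone, so lanes were treated as repeat runs of 1 library. Bowtie 0.12.2 and build mm8 are named in the submitters' processing notes; the tool that made the FPKM, scaling between files and strand are not given in the sources used here. Of 53460 gene identifiers, 53270 are in the later GENCODE annotation of GRCm38, so no positions of genes are given beyond the RefSeq start windows.

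Entries of a symbol were summed, 1 FPKM was added before log2, and the 12567 symbols whose lane mean reached 1 FPKM at any dose were compared. Depth was fitted so that genes under 10 fragments with 1 annotated transcript of 1500 to 6000 bases, less 240 bases, gave whole fragments: 97.5% to 98.3% did within 0.1, where chance gives 20.0%. The call rule was tested on simulated lanes with known folds. That simulation held no variation between cultures, so it does not check differences between doses of 1 library each. The members and lists were chosen with earlier results of these data known. Named genes are the members, up to 6 per list by size of fold at 10 µM, the 5 nearest to Ptgs2 and Ptgds, and markers. Zfp36l2 was added as a relative of Zfp36, and Mboat2 for its calls under other settings. Computations used Python 3.11.15, numpy 2.4.6, pandas 2.3.3, scipy 1.17.1 and matplotlib 3.10.9. Alternatives were pseudocounts of 0.1 and 5 FPKM, no filter or 5 FPKM, 3 scalings, a 2-fold threshold, the largest entry per symbol and each lane left out.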

Additional observations from a re-analysis of the deposited data

How the results depend on the processing

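Directions of the called members, Ptgs2, Ptges3, Ptgds and Ptger4, held under every alternative in which they were compared. At a 2-fold threshold 2 members were called at 5 against 0 µM instead of 4 (Ptgds and Ptgs2), and 14 genes of the fixed lists instead of 26 at 10 µM; the stricter threshold itself removes them. Ptger4 at 5 µM is the borderline call: it was lost with a pseudocount of 5 FPKM (−0.27), trimmed mean scaling (−0.56), equal sums (−0.45), a median fold of 0 (−0.56), and without lane 6 of 0 µM (−0.53) or lane 7 of 5 µM (−0.57). At 10 µM it was called lower with a pseudocount of 0.1 FPKM (−0.77) and without lane 7 of 0 µM (−0.62) or lane 6 of 10 µM (−0.59). Equal sums, which leave out Snora62 (listed at 3.86e+05 FPKM in 1 lane of 5 µM and at 0 elsewhere), moved the median log2 fold of all genes at 10 µM from −0.03 to 0.16 and the share of calls that are higher from 45.2% to 65.0% (at 5 µM from 45.7% to 64.8%). Leaving out each lane gave 3 to 4 called members at 10 µM and at 5 µM, 0 between the treated doses, and 26 to 27 called list genes. No paired analysis was possible because the lanes are repeat runs of 1 library per dose and no test was made. With 1 culture a dose, differences between cultures cannot be told apart from those between doses.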
